A study of Mus musculus with 4 samples.

Results

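Ppargc1a read 2.02-fold lower in refed than in fasted Cont liver, the only 2-fold difference in a set of 10 genes of mitochondrial biogenesis and mitochondrial DNA (mtDNA) maintenance by the probes used for them, and this call was lost under several other ways of processing. The 10 genes are Ppargc1a, Ppargc1b, Esrra, Nrf1, Tfam, Tfb1m, Tfb2m, Polrmt, Polg and Polg2. They were found by their symbols in the gene name column of the scanner files, with control spots left out. All 10 were on the array, among 30204 genes in all, and they were read by 17 of 39429 probes.

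Liver RNA came from male C57BL/6J mice given a high-fat diet (HFD), which the labels put at 24 weeks. In Drp1LiKO mice (Alb-Cre Tg/+ Drp1 flox/flox) the albumin promoter drives Cre, which is meant to delete Drp1, the GTPase that divides mitochondria, in hepatocytes. In which cells of the liver Drp1 was lost was not measured here. The controls (Cont, wild type in the labels) were littermates with Drp1 flox/flox and no Cre. One-color Agilent arrays were run for 4 liver RNA samples, 1 per group: Cont and Drp1LiKO without refeeding, and Cont and Drp1LiKO after a fast of 17 h and 4 h of food. The labels of the first pair name no feeding state, and they are called fasted here from the methods of the study. Those methods place fasted experiments in the morning and the collection of refed samples in the afternoon. In every refeeding difference below, feeding and time of day therefore cannot be told apart. Whether an array held RNA of 1 mouse or of a pool was not given in the sources used here. With 1 array per group no spread between animals can be measured, and in whole liver fewer cells of a type and less RNA per cell cannot be told apart.

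Mitochondria carry their own small circular genome, but nearly all factors that copy and read it are encoded in the nucleus. The coactivators PGC-1alpha (Ppargc1a) and PGC-1beta (Ppargc1b) bind nuclear receptors such as ERRalpha and the factor NRF1, and these switch on genes for respiration and for mtDNA upkeep. In the liver, PGC-1alpha is known as a fasting-induced coactivator of gluconeogenesis and fatty acid oxidation. Inside the organelle, TFAM packages mtDNA and, with TFB2M and the RNA polymerase POLRMT, starts transcription, while polymerase gamma replicates the genome.

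Levels are given as the percentage of the 75th percentile signal of the same array, and levels of the 10 genes are not compared with each other because each probe binds its target differently. Marker genes of a cell type are summed, and such a sum follows its brightest probes. The 75th percentile signal was 461 and 722 in fasted Cont and Drp1LiKO liver, and 357 and 526 in refed Cont and Drp1LiKO liver. By the flag of the scanner software, from 48.7% (refed Cont) to 58.2% (fasted Drp1LiKO) of the 43020 spots for genes stood well above background, and 0 were saturated. A difference was called when it reached 2-fold and the brighter signal was well above background; a gene is named measurable in a comparison when that brighter signal was. The ± beside a log2 difference is 1 standard error (SE) from the error model of the scanner software, which covers the measurement and not the animals.

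Dnm1l, the gene of Drp1, was read at 202% and 175% in fasted Cont and Drp1LiKO liver and at 158% and 146% in refed Cont and Drp1LiKO liver. The genotype differences were -0.21 ± 0.20 after fasting and -0.12 ± 0.21 after refeeding (Drp1LiKO minus Cont, log2). Which exons were deleted was not given in the sources used here, so this probe does not check the genotype.

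Ppargc1a was brightest in the fasted pair. Its level was 65.6% in fasted Cont and 71.9% in fasted Drp1LiKO liver, against 32.4% in refed Cont and 39.8% in refed Drp1LiKO liver. Both fasted arrays were above both refed arrays, and within a feeding state the genotypes lay close together. The refed minus fasted difference was -1.02 ± 0.22 in Cont, a 2.02-fold lower level, and -0.85 ± 0.21 in Drp1LiKO, where the level was 1.81-fold lower. The genotype difference was 0.13 ± 0.21 after fasting and 0.30 ± 0.22 after refeeding. The refeeding differences of the genotypes were 0.165 ± 0.30 apart, within 2 SE of 0. Only 5.68% of the 16358 genes measurable in Cont liver and 9.19% of the 18237 in Drp1LiKO liver had lower refeeding differences. The call in Cont rests on the processing: the difference was -0.98 after quantile normalization, which gives every array the same distribution, and -0.66 after normexp, a model-based background correction that pulls dim signals together. The probe lies at chr5:51848928-51848987 (mm9). A second Ppargc1a probe was too dim to be read on any of the arrays.

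Ppargc1b, the second coactivator of the family, was a dim gene on these arrays. It was read at 11.4% in fasted Cont and 9.97% in fasted Drp1LiKO liver, and at 5.82% in refed Cont and 5.78% in refed Drp1LiKO liver. The refed Cont signal was not well above background. For that array the comparison is a bound, taken against the lowest signal that was well above background there, and the level in refed Cont was at least 1.34-fold lower than in fasted Cont. In Drp1LiKO liver, where both signals were measured, the refeeding difference was -0.79 ± 0.33. As for Ppargc1a, both fasted arrays read above both refed arrays. The only probe lies at chr18:61458222-61458281 (mm9). With normexp correction its refeeding differences shrank to 0.02 in Cont and -0.18 in Drp1LiKO.

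**Figure D1:**
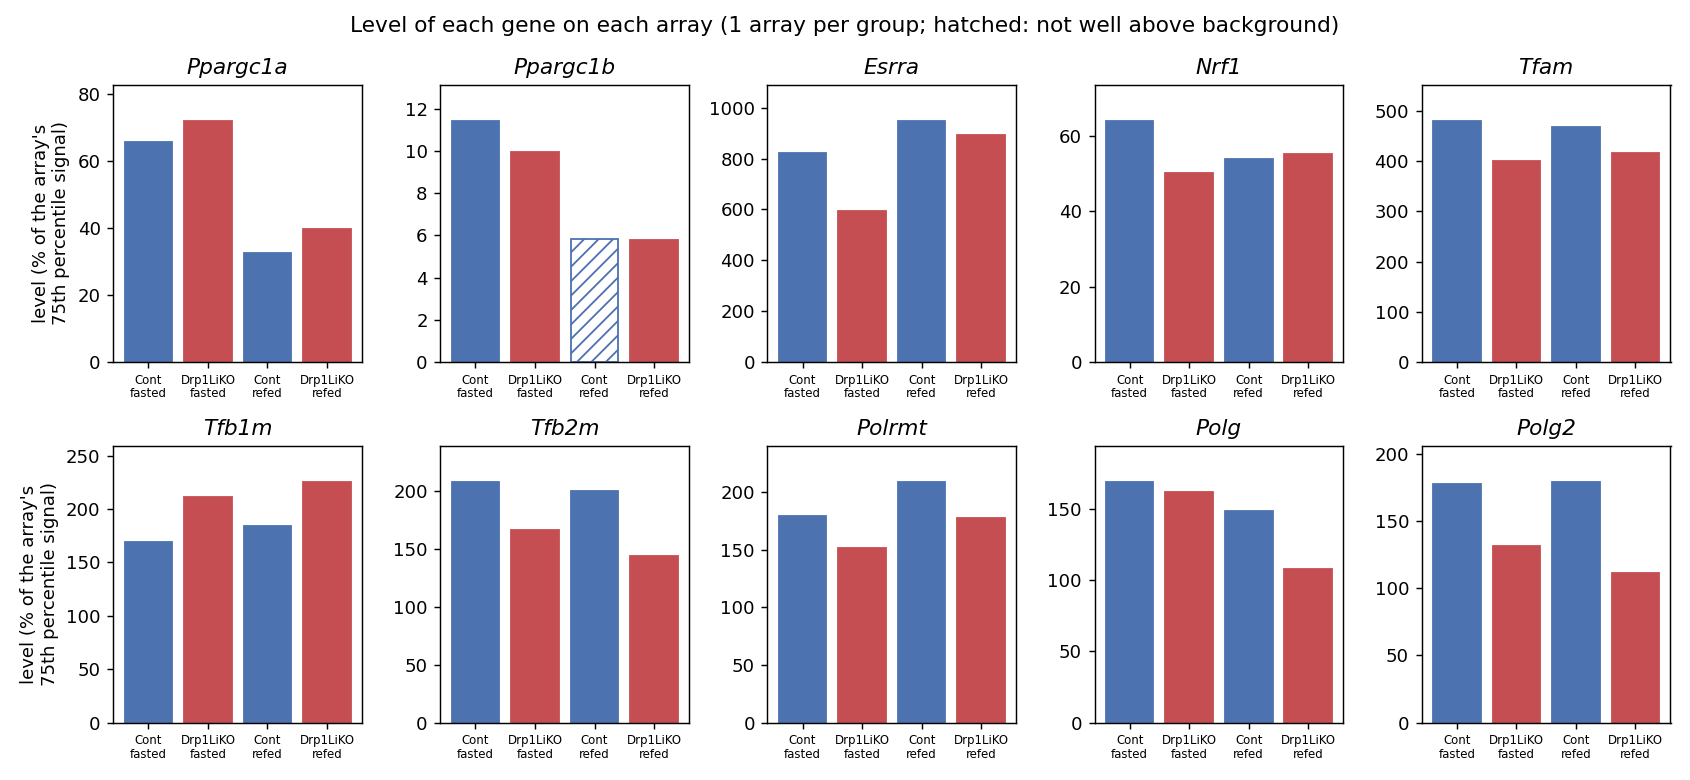
Level of each gene on each array, as a percentage of the 75th percentile signal of that array; every bar is 1 array, blue for Cont and red for Drp1LiKO, and each panel has its own axis from 0. Ppargc1a and Ppargc1b are the genes whose fasted bars both stand above their refed bars by the widest margin; the hatched Ppargc1b bar marks the signal that was not well above background.

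Esrra encodes ERRalpha, the orphan nuclear receptor through which PGC-1alpha acts on many genes of oxidative metabolism. Esrra was read at 823% in fasted Cont, 596% in fasted Drp1LiKO, 948% in refed Cont and 893% in refed Drp1LiKO liver. The fasted Drp1LiKO array was the lowest of the 4. Its genotype difference was -0.47 ± 0.20 after fasting and -0.09 ± 0.20 after refeeding, and the refeeding difference was 0.21 ± 0.20 in Cont and 0.58 ± 0.20 in Drp1LiKO. In Drp1LiKO liver Esrra thus read higher after refeeding, where Ppargc1a read lower. After quantile normalization the genotype difference in refed liver was 0.01, while the fasted one was -0.32. The refeeding difference in Drp1LiKO was then 0.396, just within 2 SE of 0. The probe lies at chr19:6985503-6985562 (mm9).

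Nrf1, which encodes the activator of many nuclear genes for respiratory chain and mtDNA factors, varied little by the probe used. Its levels were 64.0% and 50.1% in fasted Cont and Drp1LiKO liver and 53.8% and 55.2% in refed Cont and Drp1LiKO liver. The genotype difference was -0.35 ± 0.21 after fasting and 0.04 ± 0.21 after refeeding, and the refeeding differences of -0.25 ± 0.21 and 0.14 ± 0.21 were within 2 SE of 0. The probe used lies at chr6:30103035-30103094 (mm9). The other Nrf1 probes were not well above background in either Cont array. The brighter of them was well above background in both Drp1LiKO arrays and read at least 0.39 higher there in fasted liver, the opposite direction, and the median over probes, which rests on dim Cont signals, was 0.39 in fasted and 0.70 in refed liver.

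**Figure D2:**
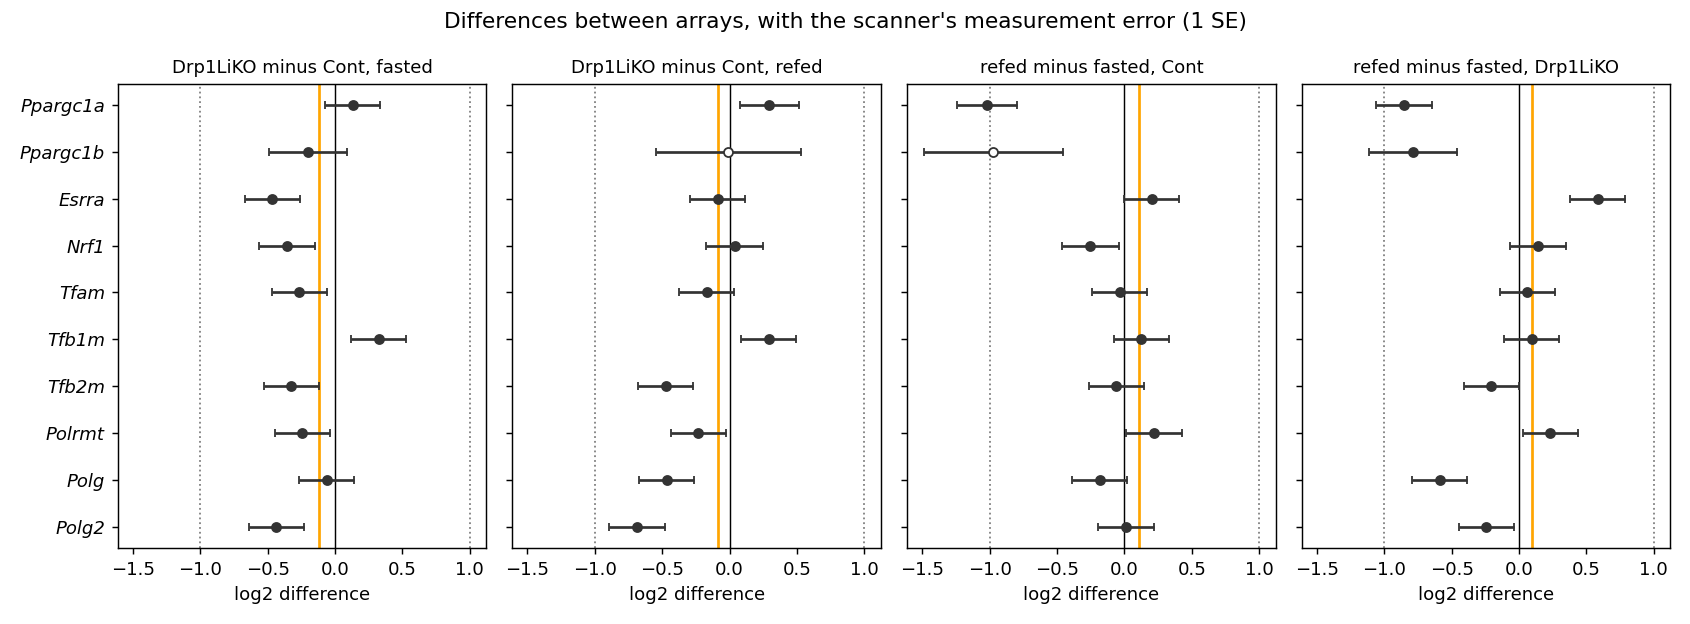
The log2 difference of each gene in each of the 4 comparisons; points are differences between single arrays, bars are 1 SE of the measurement, open points have a side that was not well above background, dotted lines mark 2-fold and the orange line is the median of all genes measured on both arrays. Ppargc1a in Cont, at -1.02, is the point that was called.

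Tfam, the packaging protein and activator of mtDNA, was close to level across the arrays by the probe used. It was read at 480% in fasted Cont, 400% in fasted Drp1LiKO, 468% in refed Cont and 417% in refed Drp1LiKO liver. Both Drp1LiKO arrays read below both Cont arrays, by -0.26 ± 0.20 after fasting and -0.17 ± 0.20 after refeeding, and the refeeding differences were -0.04 ± 0.20 and 0.06 ± 0.20. These 4 differences were all within 2 SE of 0. The probe used lies at chr10:70691103-70691162 (mm9). A second bright Tfam probe read -0.18 ± 0.20 and -0.07 ± 0.21 between genotypes, whereas the remaining, dim probe read 0.63 ± 0.27 in fasted liver, the opposite direction, and -0.67 ± 0.24 for refeeding in Drp1LiKO.

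Tfb2m and Polrmt, the partners of TFAM at the mtDNA promoters, also had negative genotype differences in both states, of which only that of Tfb2m in refed liver was beyond 2 SE. Tfb2m was read at 208% in fasted Cont, 166% in fasted Drp1LiKO, 200% in refed Cont and 144% in refed Drp1LiKO liver, with genotype differences of -0.33 ± 0.20 and -0.47 ± 0.21. Polrmt was read at 179% in fasted Cont, 152% in fasted Drp1LiKO, 209% in refed Cont and 178% in refed Drp1LiKO liver, with genotype differences of -0.24 ± 0.20 and -0.23 ± 0.21. For Tfb2m both Cont arrays were above both Drp1LiKO arrays, and for Polrmt fasted Cont and refed Drp1LiKO liver were level. The refeeding differences of Tfb2m were -0.06 ± 0.21 in Cont and -0.21 ± 0.20 in Drp1LiKO. Those of Polrmt were 0.22 ± 0.21 and 0.23 ± 0.20. The probes lie at chr1:181458247-181458306 and chr10:79198897-79198956 (mm9).

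Tfb1m is a relative of Tfb2m whose product methylates the ribosomal RNA of the small mitochondrial ribosomal subunit. Besides Ppargc1a it was the only gene of the set that read higher in Drp1LiKO liver in both states by the probes used. With the median over probes, which takes in dim signals, Nrf1 also did, at 0.39 and 0.70. Ppargc1a turned to -0.34 in refed liver by that median. Tfb1m levels were 169% in fasted Cont, 211% in fasted Drp1LiKO, 184% in refed Cont and 226% in refed Drp1LiKO liver. Both Drp1LiKO arrays thus lay above both Cont arrays. The genotype differences were 0.32 ± 0.21 and 0.29 ± 0.21, each within 2 SE of 0, and the refeeding differences were 0.13 ± 0.21 and 0.09 ± 0.20. The probe lies at chr17:3519390-3519449 (mm9).

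Polg encodes the catalytic subunit of the mtDNA polymerase, and it was lowest in refed Drp1LiKO liver. It was read at 169% in fasted Cont, 162% in fasted Drp1LiKO, 149% in refed Cont and 108% in refed Drp1LiKO liver. The other 3 arrays lay close together. The genotype difference was -0.06 ± 0.20 after fasting and -0.47 ± 0.21 after refeeding, and the refeeding difference was -0.18 ± 0.21 in Cont and -0.59 ± 0.20 in Drp1LiKO. A second Polg probe read -0.41 ± 0.21 for the genotype difference in refed liver and -0.60 ± 0.21 for refeeding in Drp1LiKO, close to the first. In fasted liver it read 0.17 ± 0.21, and both probes were within 1 SE of 0 there. The genotype difference in refed liver minus that in fasted liver was -0.40 ± 0.29, which is within 2 SE of 0. The probes lie at chr7:86594739-86594798 and chr7:86595379-86595438 (mm9).

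Polg2, the accessory subunit that holds the polymerase on its template, had the widest genotype difference of the 10 genes in refed liver by the probes used. It was read at 178% in fasted Cont and 131% in fasted Drp1LiKO liver, and at 179% in refed Cont and 111% in refed Drp1LiKO liver. Both Drp1LiKO arrays lay below both Cont arrays. The genotype difference was -0.44 ± 0.20 after fasting and -0.69 ± 0.21 after refeeding, a 1.61-fold lower level, and 11.9% of the 17366 genes measurable in refed liver had lower values. A second, dimmer Polg2 probe was also lower in Drp1LiKO liver, by -1.03 ± 0.23 and -0.41 ± 0.29. The probes disagreed on refeeding in Cont liver, at 0.01 ± 0.21 and -1.02 ± 0.28. They lie at chr11:106629572-106629631 and chr11:106640274-106640333 (mm9), and whether these stretches are exons shared by all transcripts was not analysed here.

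**Figure D3:**
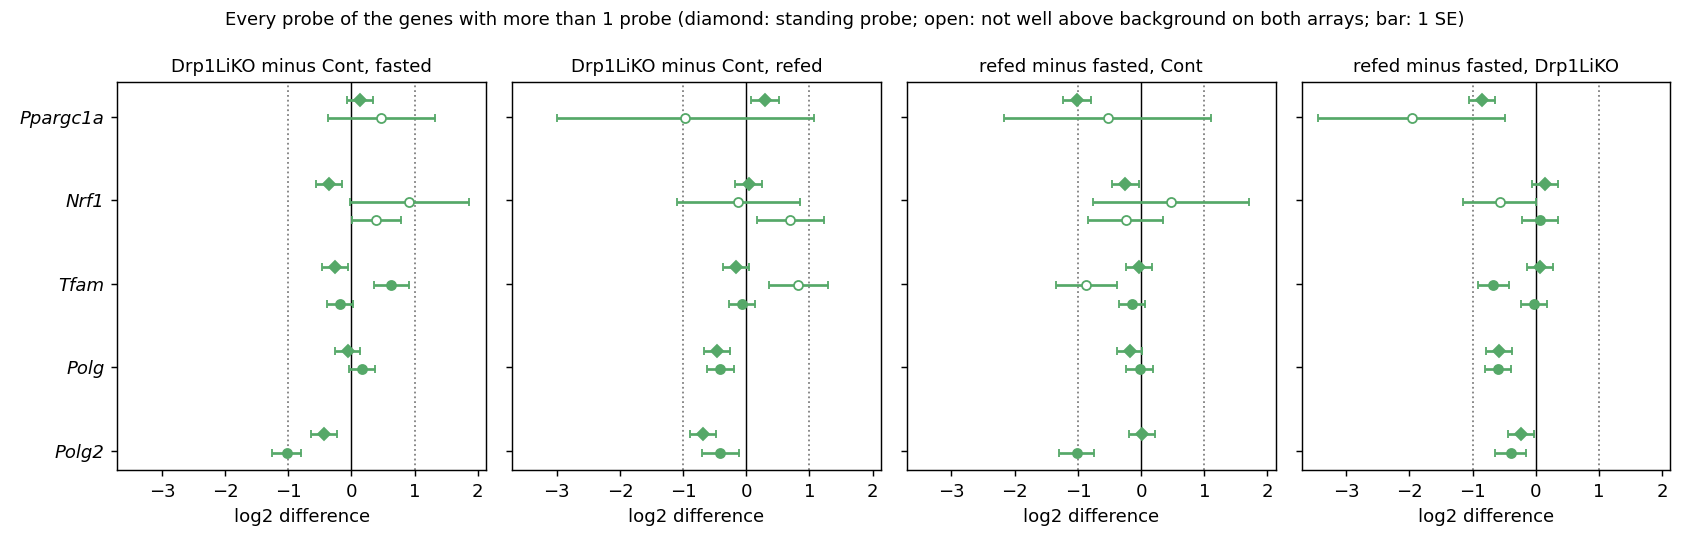
The log2 difference read by every probe of the 5 genes with more than 1 probe, with 1 SE of the measurement; diamonds are the probes used for the gene and open symbols have a side that was not well above background. The Polg probes lie together after refeeding, at -0.47 and -0.41 between genotypes, while the Polg2 probes part for refeeding in Cont, at 0.01 and -1.02.

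Promoter sequence was compared for the 9 genes of the set other than Ppargc1b in the RefSeq table (GRCm38.p6), which has windows of 250 bases before and 50 bases after the transcription start. The letters CCGGAAG, the core bound by ETS factors such as GABP, occurred on either strand in 4 of the 9, against 8.86% of 32851 promoter windows. The NRF1 letters CGCANGCGC occurred in 3 of the 9 (Esrra, Polrmt and Tfb2m), against 6.31%. The ERR element TCAAGGTCA and the cyclic AMP response element TGACGTCA occurred in 0 of the 9, against 0.423% and 1.79%. The ETS stretches of Polg, Tfam, Polrmt and Polg2 are shown because this element matched the most genes of the set. Those 4 genes read lower in Drp1LiKO liver in both states by the probe used, and so did Tfb2m and Esrra, which had no ETS match. Each runs from 70 to 11 bases before the start on the minus strand, with the match in capitals.
Polg, chr7:79466284-79466343: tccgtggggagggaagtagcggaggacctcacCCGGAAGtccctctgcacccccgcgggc
Tfam, chr10:71238055-71238114: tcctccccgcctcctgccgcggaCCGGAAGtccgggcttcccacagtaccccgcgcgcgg
Polrmt, chr10:79746592-79746651: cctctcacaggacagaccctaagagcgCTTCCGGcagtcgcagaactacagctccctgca
Polg2, chr11:106779548-106779607: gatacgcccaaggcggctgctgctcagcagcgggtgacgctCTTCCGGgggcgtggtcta
In Polrmt and Polg2 the letters stand on the opposite strand and read CTTCCGG. The stretch of Esrra with the NRF1 letters in capitals, shown because no other NRF1 match of the set lay wholly before the start, runs from 120 to 61 bases before the start on the minus strand.
Esrra, chr19:6921869-6921928: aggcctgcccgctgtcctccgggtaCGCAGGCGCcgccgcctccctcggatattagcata
For Ppargc1a, shown as the gene with the refeeding call, the 250 bases before the start (minus strand, chr5:51567726-51567975) held none of the 4 sets of letters.
Ppargc1a: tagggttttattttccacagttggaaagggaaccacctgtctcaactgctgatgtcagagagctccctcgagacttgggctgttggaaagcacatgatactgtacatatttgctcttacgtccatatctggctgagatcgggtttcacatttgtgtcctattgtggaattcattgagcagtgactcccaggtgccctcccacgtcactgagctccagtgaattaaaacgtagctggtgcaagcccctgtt
A match of letters is a description of the window and not evidence of binding.

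Counted over the set, 0 of the 10 genes were called higher or lower between genotypes in fasted liver, and again 0 in refed liver. Over all measurable genes, 8.04% were called higher and 5.18% lower in fasted Drp1LiKO liver, and 8.02% higher and 6.34% lower in refed Drp1LiKO liver. For refeeding in Cont, 1 of the 10 (Ppargc1a) was called lower and 0 higher, against 5.80% and 4.47% of all genes. For refeeding in Drp1LiKO the set had 0 calls, against 7.16% lower and 5.63% higher among all genes.

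In fasted liver the 10 genes had a median genotype difference of -0.25, with 8 lower and 2 higher (Ppargc1a and Tfb1m); with the median over probes it was -0.19, with 6 lower and 4 higher. In refed liver the median was -0.13, and -0.17 without Ppargc1b, which was dim in refed Cont. The median of all genes measured on both arrays was -0.12 and -0.08 in the same comparisons. Quantile normalization moved the all-gene median in fasted liver to -0.02, and relative to the all-gene median the 10 genes stood at -0.13 with the percentile scaling and at -0.21 after quantile normalization. In refed liver the split of all 10 was 7 lower and 3 higher, and 5 and 5 under quantile normalization. For refeeding, the medians of the 10 genes were -0.05 in Cont and -0.07 in Drp1LiKO, beside 0.11 and 0.10 for all genes.

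An additive limma model with genotype and refeeding was fitted to 16663 genes, those whose signal stood well above background on 2 or more arrays. It has 1 residual degree of freedom and takes any interaction as error. At an adjusted p under 0.05 it called 0% of genes for genotype and 0% for refeeding, and none of the 10 among them; at an unadjusted p under 0.05, 28.4% and 26.5% of genes passed. In the set, Polg2 had the lowest adjusted p for genotype, at 0.137 in limma (log2 effect -0.56, lower in Drp1LiKO in both pairs). Ppargc1a had the lowest adjusted p for refeeding, at 0.167 in limma (log2 effect -0.94, lower in both pairs). Ppargc1b had the same adjusted p in limma, but its fit uses the refed Cont signal that was not well above background, so no effect is given. The same model restricted to genes well above background on all 4 arrays called 8.56% of 14387 genes for genotype and 0.111% for refeeding, again with 0 of the set, where the lowest adjusted p was 0.0767 for Polg2 and 0.0687 for Ppargc1a.

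The products that these factors make were read directly through the 13 protein-coding transcripts of mtDNA, all well above background on all 4 arrays. In both feeding states 12 of 13 read lower in Drp1LiKO than in Cont liver; the medians were -0.56 fasted and -0.45 refed, and 0 reached 2-fold, beside 5.18% of all genes called lower in fasted and 6.34% in refed liver. The exception was mt-Nd1, at 0.15 and 0.25. The cytochrome c oxidase transcript mt-Co1 was read at 54860% in fasted Cont, 37320% in fasted Drp1LiKO, 71580% in refed Cont and 47770% in refed Drp1LiKO liver. With the percentile scaling mt-Cytb of complex III differed most between genotypes after refeeding, at -0.72 ± 0.20. With quantile normalization it was mt-Nd4l, at -0.515, with mt-Cytb at -0.398. In fasted liver mt-Nd6 differed most between genotypes, at -0.91 ± 0.21, and at -0.92 after quantile normalization. For most of the other mtDNA transcripts the size of the genotype difference depends on the scaling. After quantile normalization the medians were -0.12 and -0.18, with 11 and 12 of 13 lower.

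The median genotype difference of all genes varied with brightness. When the genes measured on all 4 arrays were divided by level into 5 equal groups, the brightest group held 2878 genes, and their median genotype difference was -0.29 in fasted and -0.14 in refed liver. The dimmest group read -0.095 and -0.150. Alb, a bright gene of hepatocytes, differed by -0.52 and -0.55, and by 0.07 and -0.09 after quantile normalization. Tfam and Esrra lie in the next group, with medians of -0.14 and -0.08, and Tfb1m, Tfb2m, Polrmt, Polg and Polg2 lie in the middle group, with medians of -0.03 and -0.01. With refeeding, 9 of 13 mtDNA transcripts were higher in Cont and 10 of 13 in Drp1LiKO, with medians of 0.14 and 0.21 that turned to -0.15 and -0.19 after quantile normalization. With the percentile scaling the brightest group of genes, which held every mtDNA transcript but mt-Nd6, had higher refeeding medians. They were 0.30 in Cont and 0.41 in Drp1LiKO. The widest refeeding differences were those of mt-Nd6, the only protein-coding gene on the other strand of mtDNA, at 0.85 ± 0.21 in Cont and 1.46 ± 0.21 in Drp1LiKO. After quantile normalization they were 0.80 and 1.47.

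**Figure D4:**
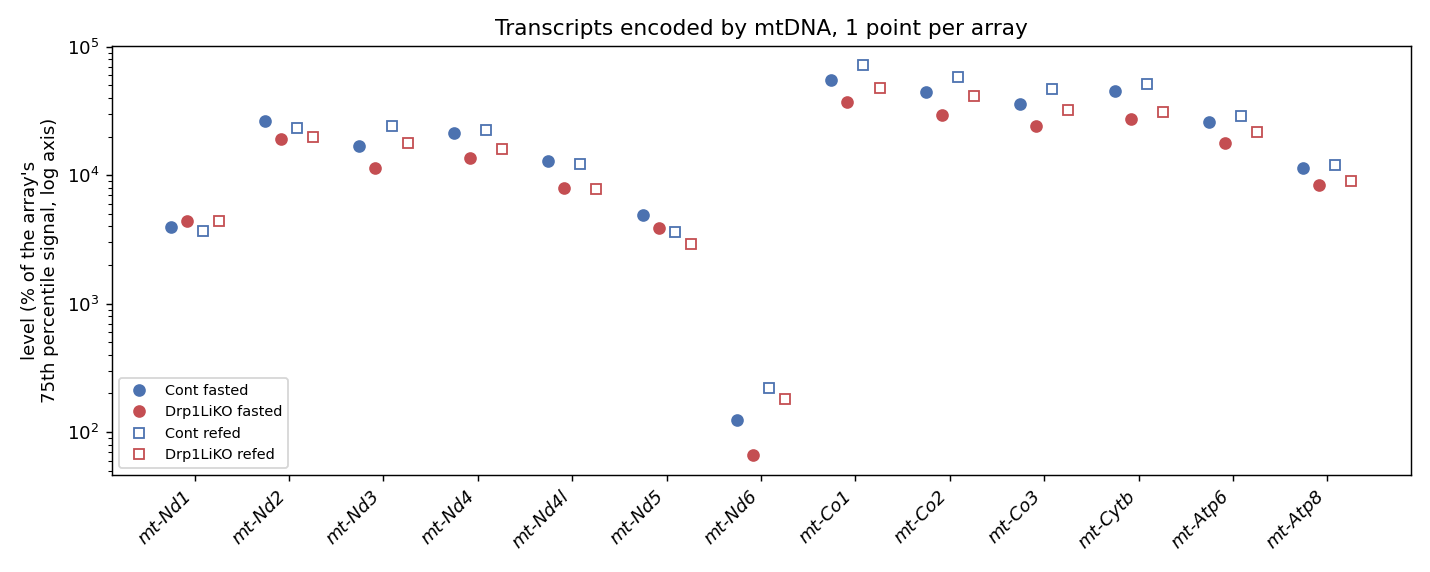
Level of the 13 protein-coding mtDNA transcripts on each array, as a percentage of the 75th percentile signal on a log axis; every point is 1 array, circles fasted and open squares refed, blue for Cont and red for Drp1LiKO. Points are to be compared within a gene: the red point lies below the blue one of the same feeding state for 12 of 13, mt-Nd1 being the exception.

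Among 29 listed partners of the coactivators, 28 were measurable in fasted liver, of which 1 was called higher and 2 lower in Drp1LiKO, beside 8.04% and 5.18% of all genes. In refed liver it was 1 higher and 3 lower of 27, beside 8.02% and 6.34%. Ppara, the nuclear receptor that drives fatty acid oxidation together with PGC-1alpha, was lower in Drp1LiKO liver in both states. Its levels were 3891% and 1863% in fasted Cont and Drp1LiKO liver and 3426% and 1309% in refed Cont and Drp1LiKO liver, giving differences of -1.06 ± 0.20 and -1.39 ± 0.20. The fasted one was -0.82 after quantile normalization, short of 2-fold. Esrrg, a relative of Esrra, differed by -1.49 ± 0.33 and -1.10 ± 0.43. Lpin1, an inducible booster of PGC-1alpha activity, was 241% in fasted and 26.8% in refed Drp1LiKO liver, a difference of -3.17 ± 0.21, against -0.99 ± 0.21 in Cont. For refeeding in Cont 0 of 26 measurable partners were called, beside 4.47% higher and 5.80% lower among all genes. In Drp1LiKO 0 of 28 were called higher and 2 lower (Lpin1 and Mef2c), beside 5.63% and 7.16% of all genes. Mef2c and Creb1 were called with a dim side: in fasted liver Mef2c was higher in Drp1LiKO by a log2 difference of 0.26 or more, and for Creb1 in refed liver no fold could be given. The list medians were -0.09 and -0.17 between genotypes and -0.13 and -0.09 for refeeding. For a list gene called in only 1 genotype or feeding state, the difference between the 2 was not tested.

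The wider machinery of mtDNA replication and nucleotide supply was listed with 33 genes. In fasted liver 2 of 32 measurable genes were called higher in Drp1LiKO and 0 lower, beside 8.04% and 5.18% of all genes. These were Mgme1, a mitochondrial exonuclease that trims replication ends (1.41 ± 0.29), and Slc25a33, a pyrimidine nucleotide carrier (1.01 ± 0.20). In refed liver 1 of 30 was called higher and 1 lower, beside 8.02% and 6.34% of all genes: Cmpk2, a mitochondrial nucleotide kinase, was higher by 2.10 ± 0.21, and Rrm2b, a ribonucleotide reductase subunit well above background only in refed Cont, was lower, at -2.285 or beyond. For refeeding in Drp1LiKO 3 of 32 measurable genes were called higher and 1 lower, beside 5.63% and 7.16% of all genes. Those higher were Fen1 (1.34 ± 0.21), Cmpk2 (1.06 ± 0.21) and Dtymk (1.003 ± 0.20, and 0.86 after quantile normalization). Tymp was lower (-1.19 ± 0.20). In Cont liver 2 of 30 were called higher with refeeding and 0 lower, beside 4.47% and 5.80% of all genes. They were Dna2 (1.11 ± 0.26) and Rrm2b (at least 1.70). The list medians were 0.04 and 0.01 between genotypes, with 17 of 29 and 15 of 29 higher, and 0.03 and 0.20 for refeeding. They depend on the scaling: after quantile normalization the fasted genotype median was 0.175, with 21 of 29 higher, and the refeeding median in Drp1LiKO was 0.000, with 15 of 29 higher against 20 of 29 before.

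Of 28 genes that transcribe, process or stabilise mtDNA-encoded RNA, 27 were measurable and 0 reached 2-fold in any of the 4 comparisons. Among all genes, from 4.47% to 8.04% were called higher and from 5.18% to 7.16% lower in a comparison. Tefm, the elongation factor of POLRMT, had nearly the same genotype difference in both states, 0.743 and 0.735, with levels of 36.0% in Cont and 60.2% in Drp1LiKO fasted, and 36.2% and 60.2% refed. The list medians were -0.04 and 0.04 between genotypes and 0.10 and 0.17 for refeeding.

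Of 22 known liver targets of PGC-1alpha and ERRalpha, 4 were called lower and 0 higher with refeeding in Drp1LiKO, beside 7.16% and 5.63% of all genes. In Cont 1 was called lower and 2 higher, the fasting hormone gene Fgf21 (1.47 ± 0.20) and G6pc of glucose release (1.38 ± 0.20), beside 5.80% and 4.47% of all genes. Pdk4, the kinase that holds back pyruvate oxidation, was read at 57.4% and 24.3% in fasted and refed Cont liver and at 136% and 31.6% in fasted and refed Drp1LiKO liver, differences of -1.24 ± 0.24 and -2.10 ± 0.21. The gluconeogenic gene Pck1 (-1.60 ± 0.20), the carnitine transferase gene Cpt1a (-1.23 ± 0.20) and Fgf21 (-1.77 ± 0.20) were the others in Drp1LiKO. In fasted liver 2 of the 22 were called higher in Drp1LiKO and 0 lower, beside 8.04% and 5.18% of all genes. They were Fgf21 (2.58 ± 0.20) and Pdk4 (1.24 ± 0.21). In refed liver 0 were called higher and 1 lower, beside 8.02% and 6.34% of all genes. This was G6pc, lower in refed Drp1LiKO than in refed Cont liver, at -1.895 ± 0.20. Between genotypes the list had medians of 0.09 and -0.20, with 13 of 22 and 7 of 22 higher. After quantile normalization they were 0.29 and -0.09. For refeeding the medians were 0.15 in Cont and -0.04 in Drp1LiKO, with 13 of 22 and 10 of 22 higher. They turned to -0.055 and -0.25 after quantile normalization.

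**Figure D5:**
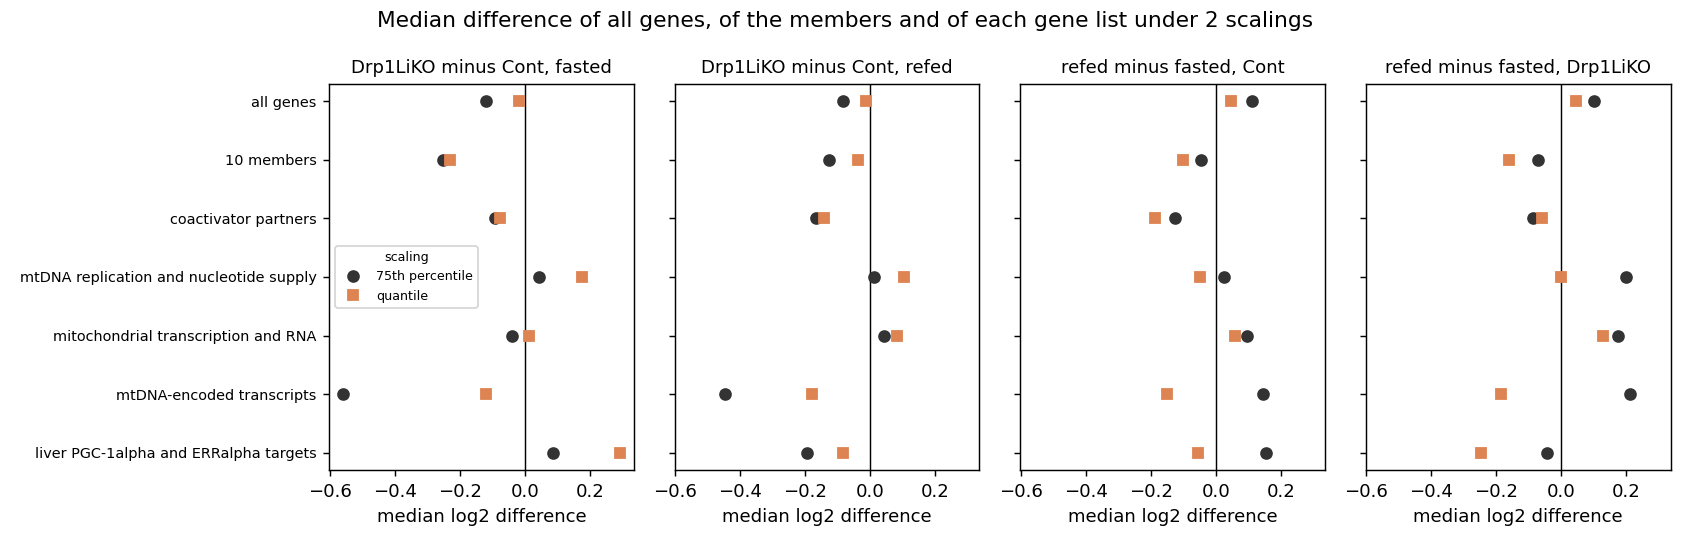
Median log2 difference of all genes measured on both arrays, of the 10 genes of the set and of each gene list, with percentile scaling (black circles) and quantile normalization (orange squares). The mtDNA transcripts move from -0.56 to -0.12 in fasted liver with the scaling, and the set of 10 lies left of all genes in the 4 comparisons under both scalings.

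Genes listed as markers of other tissues differed between the arrays. They stand beside the Ppargc1a values because brown fat and muscle are rich in this coactivator. In which cells these genes were expressed was not measured here. The 4 skeletal muscle markers Ckm, Acta1, Myh4 and Mb were all well above background in fasted Cont liver, with a summed level of 263%, led by Acta1 at 105%. In fasted Drp1LiKO, refed Cont and refed Drp1LiKO liver the sum was 5.87%, 21.7% and 4.39%, and Mb in refed Cont was the only one of them well above background. The 5 brown adipocyte markers summed to 828% in fasted Cont and 2269% in refed Cont, against 144% and 114% in fasted and refed Drp1LiKO liver, a sum that follows Cidea in refed Cont, with Ucp1 well above background only in fasted Cont, at 13.1%. Cidea differed between genotypes by -3.12 ± 0.21 in fasted and -6.11 ± 0.21 in refed liver, and between refed and fasted liver by 2.21 ± 0.20 in Cont and -0.78 ± 0.21 in Drp1LiKO. With refeeding in Cont Cox8b went the other way, at -1.74 ± 0.22, Cox7a1 was level, at 0.03 ± 0.20, and the list median was 0.03. Of the 5 adipocyte markers only Cfd was well above background, at 423% and 12.6% in fasted Cont and Drp1LiKO liver and 2181% and 28.2% in refed Cont and Drp1LiKO liver. Its genotype differences were -5.07 ± 0.22 and -6.27 ± 0.21. The part of these markers in the values of Ppargc1a and Esrrg was not tested.

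Markers of the liver itself were present on every array. All 5 hepatocyte markers were well above background throughout, and their sum, which follows Alb and Ttr, was 144700% and 104300% in fasted Cont and Drp1LiKO liver and 177700% and 123700% in refed Cont and Drp1LiKO liver. Cps1 went the other way, higher in Drp1LiKO by 0.60 ± 0.20 after fasting and 1.24 ± 0.20 after refeeding. The hepatocyte list median between genotypes was -0.32 in fasted and -0.38 in refed liver. It depends on the scaling, at 0.065 and -0.13 after quantile normalization. The 5 macrophage markers, led by Cd5l, summed to 6631%, 7416%, 6923% and 11610% in fasted Cont, fasted Drp1LiKO, refed Cont and refed Drp1LiKO liver. Stellate cell markers summed to 4571%, 6558%, 5154% and 5892% in the same order, a sum that follows Dcn. Col1a1 and Col3a1 were called higher in fasted Drp1LiKO liver, by 1.67 ± 0.23 and 1.28 ± 0.21. In refed liver they read -0.02 ± 0.22 and -0.445 ± 0.21. The stellate list median was 0.84 between genotypes in fasted and 0.09 in refed liver. The 4 endothelial markers summed to 2315%, 1682%, 2695% and 1658%, a sum that follows Kdr (-0.81 ± 0.20 and -0.93 ± 0.20 between genotypes), while Pecam1 differed by 0.84 ± 0.27 in fasted liver and the list median there was 0.08. Cholangiocyte markers summed to 23.3%, 39.3%, 34.0% and 63.5%, with Sox9 called higher in Drp1LiKO liver, by 1.24 ± 0.32 fasted and at least 1.67 refed, and lymphocyte markers summed to 226%, 152%, 288% and 192%. The part of these cells in the values of the 10 genes was not tested.

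The genes whose pattern over the 4 arrays was nearest to that of Ppargc1a were sought among 14386 others well above background on all 4, by the root mean square distance of log2 levels centred on each gene. They were B130052P14Rik, 5830469G19Rik, Ttll3, Cep350 and Smg1, at distances from 0.04 to 0.06. With 4 arrays many genes can lie this close.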

How the data were processed

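Liver RNA of 4 groups was hybridized to one-color Agilent arrays, all on 1 slide and in 1 scan. The intensity values used are background-subtracted signals from the scanner output deposited by the authors. The file headers name Feature Extraction 10.7.1.1, which subtracted the background within each array and did not normalize between arrays, while the submitters' processing notes name version 9.5.1.1. The study's methods name another array design, RNA kit and length of fast than the labels, and the files carry the labels' design. A second intensity table deposited by the authors is on a linear scale with the same distribution on every array. For the 39030 probes with 1 spot its log2 values lay within 0.0273 of quantile-normalized signals, and it served as an alternative.

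Log2 signals were set relative to the 75th percentile of the array. Spots flagged as outliers were left out, which removed 37 probes, and repeated spots were averaged. A gene was read from its probe well above background on the most arrays, then the brightest. For bounds, a dim side was replaced by the dimmest signal of that array still well above background, or by its own signal if higher. The additive limma model used Benjamini-Hochberg adjustment. No test exists within a feeding state. The members and lists were chosen with earlier results of these data known. List genes are named where called or as examples of their role. List symbols were matched to file names directly or through RefSeq synonyms; mt-Rnr1 and mt-Rnr2 had no match. Calculations were tested on simulated data. Alternatives were median scaling, quantile normalization, normexp with an offset of 50, the authors' table, the median over probes, flagged spots kept, both sides well above background, a 1.5-fold threshold and other limma filters and models. Scripts ran in R 4.3.3 (limma 3.58.1) and Python 3.11.15 (matplotlib 3.10.9, pandas 2.3.3, numpy 2.4.6).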

Additional observations from a re-analysis of the deposited data

Results flagged for a closer look

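Among the 10 genes of the set, 0 had differences of opposite sign in the 2 feeding states or the 2 genotypes that each exceeded 2 measurement SE. Among the 117 genes of the lists that were well above background on all 4 arrays, 6 did, beside 221 (1.54%) of the 14387 such genes in all; the opposition itself was not tested, since each side is a difference between 2 single arrays. Fgf21 was higher in fasted Drp1LiKO than in fasted Cont liver by 2.58 ± 0.20 on the log2 scale and lower after refeeding, at -0.67 ± 0.20. With refeeding Fgf21 differed by 1.47 ± 0.20 in Cont and by -1.77 ± 0.20 in Drp1LiKO. G6pc showed the same opposition with refeeding, at 1.38 ± 0.20 in Cont and -0.74 ± 0.20 in Drp1LiKO. Lpin1 differed between genotypes by 0.93 ± 0.21 in fasted and -1.25 ± 0.21 in refed liver, and Pck1 by 0.46 ± 0.20 and -0.51 ± 0.20.

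From the mtDNA replication and nucleotide list, Cmpk2 differed with refeeding by -0.49 ± 0.22 in Cont and 1.06 ± 0.21 in Drp1LiKO, and Slc25a33 by 0.53 ± 0.20 and -0.79 ± 0.20. For the list genes counted here, markers left out, all these signs were kept under median scaling, quantile normalization and normexp correction.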

How the results depend on the processing

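The median genotype difference of the 10 genes in refed liver was -0.13, and -0.04 after quantile normalization. Their median for refeeding in Drp1LiKO was -0.07, but 0.02 with median scaling and -0.16 after quantile normalization. With a 1.5-fold threshold, 0 genes of the set were called between genotypes in fasted liver and 1 in refed liver. For refeeding 2 were called in Cont and 3 in Drp1LiKO. In the same order, 28.3%, 30.4%, 21.7% and 32.5% of all measurable genes were called. The 1 call for refeeding in Cont, Ppargc1a, became 0 with normexp correction and with the median over probes. The latter gave 1 in Drp1LiKO, also Ppargc1a, at -1.41. For Ppargc1a this median takes in the second probe, which was too dim to be read on any array. Quantile normalization and the authors' table also gave 1 for Cont, but for Ppargc1b, whose refed Cont signal was not well above background and gives only a bound, with Ppargc1a at -0.98.

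Over all genes, 2373 and 2494 were called between genotypes in fasted and refed liver, and 1679 and 2331 for refeeding in Cont and Drp1LiKO. In the same order, the counts were 921, 1067, 721 and 885 with normexp correction, 1031, 1106, 597 and 1092 with both signals well above background, and 5081, 5286, 3556 and 5919 with a 1.5-fold threshold. limma called 0 genes for genotype, but 1232 when every array had to be well above background, 487 with an intensity trend and 1 with genotype alone; for refeeding it called 0, and 16 under that stricter filter. The cause of these shifts was not tested. Of the 40 single differences of the set, 7 moved by at least 1 SE with the median over probes and 4 with normexp correction. Leaving out an array was not possible with 1 per group. No paired analysis by animal was made, as the labels carry no replicate numbers; the additive limma model compares genotypes within feeding state and feeding within genotype. Signal over background limits Ppargc1b and the dim second probes of Ppargc1a, Nrf1 and Tfam.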
